A study of Bos taurus with 6 samples.

Results

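The densely packed autosomal CpGs of the bovine genome were examined in sperm, monocytes and fibroblasts. A CpG is a cytosine followed by a guanine, and its cytosine can carry a methyl group. A CpG was counted as densely packed when at least 10 other CpGs were listed within 50 bp on either side of it. It also had to lie on chromosomes 1 to 29 and to be covered by 5 to 500 reads in each of the 6 libraries. Of 4091810 CpGs listed in at least 1 library, 3877982 were autosomal and 431335 of these had 10 or more neighbours. The coverage limits left 233572 densely packed CpGs, which were 54.2% of the 431335 and 13.6% of the 1715187 autosomal CpGs within the coverage limits. Of the 197763 that were left out, 108240 were not read in some library, a further 88943 were read fewer than 5 times somewhere and 580 exceeded 500 reads while passing the minimum everywhere.

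In mammals, most CpGs are methylated and are lost over evolution by deamination, so that stretches with many CpGs stand out from the rest of the genome. Such stretches are called CpG islands. They often overlap the start of genes and usually stay free of methylation, whereas methylation of an island at a gene start goes with silencing of that gene. The male germ line erases and rewrites its methylation independently of the somatic lineages, and mature sperm DNA is packed mainly with protamines.

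The methylation was measured by reduced representation bisulfite sequencing (RRBS), in which MspI cuts DNA at CCGG sites and bisulfite converts unmethylated cytosines. The percentage of reads with an unconverted cytosine is the methylation level of a CpG, and differences between levels are given in percentage points. The 6 libraries came from 6 Holstein animals. Both sperm libraries were made from commercial straws of bulls, both monocyte libraries from CD14+ cells of the blood of cows, and both fibroblast libraries from cultures of ear skin at passage 11, whose donors the labels call cows and the methods heifers. Cell type and sex therefore cannot be told apart, nor can culture and the fibroblast type. Monocyte DNA was amplified over 12 PCR cycles, and the DNA of both other cell types over 14. The libraries listed 3179546 to 3403225 CpGs each, with a summed coverage of 45884839 to 78890776 reads and a median of 9 to 14 reads per CpG. At the densely packed CpGs the median coverage was 18 reads in both sperm libraries, 17 and 15 in monocytes and 21 and 27 in fibroblasts. All positions are given on UMD3.1 as in the deposited tables, and neither genes nor DNA sequences could be assigned to them, since no UMD3.1 genome or annotation was used here. For the same reason the labelled cell types could not be checked against marker genes.

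The first question was how much methylation the densely packed CpGs carried in each cell type. Their mean methylation was 6.27% and 6.25% in the sperm libraries, as against 14.05% and 13.86% in those of monocytes and 13.98% and 14.17% in those of fibroblasts. Both sperm libraries lay below all 4 somatic libraries, while monocytes and fibroblasts overlapped. The group means were 6.26% ± 0.00930 (SD, n = 2) in sperm against 13.96% ± 0.135 (SD, n = 2) in monocytes and 14.07% ± 0.130 (SD, n = 2) in fibroblasts. Somatic cells exceeded sperm by 7.76 points (p = 0.0667, exact two-sided permutation test, the smallest value that 2 against 4 libraries allow). Monocytes and fibroblasts differed by -0.116 points (exact permutation p = 0.667), and the sign of this difference changed when CpGs were weighted by their coverage, when 8 or more neighbours were required and when 1 CpG per cluster was used.

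The mean was made up of CpGs near both ends of the scale. Under 20% methylation were 93.21% and 93.08% of the densely packed CpGs in sperm compared with 83.93% and 84.14% in monocytes and 83.14% and 83.00% in fibroblasts. Above 80% were 4.97% and 4.87% in sperm against 11.71% and 11.54% in monocytes and 9.68% and 9.91% in fibroblasts. The share of methylated CpGs was thus lowest in sperm and highest in monocytes, with no overlap between the cell types. Intermediate levels of 20 to 80% were found for 1.93% ± 0.167 (SD, n = 2) of the CpGs in sperm compared with 4.34% ± 0.0321 (SD, n = 2) in monocytes and 7.13% ± 0.0639 (SD, n = 2) in fibroblasts. Each pair of cell types was separated for these shares, but with 2 libraries against 2 the exact permutation test cannot go below 0.333. Not a single methylated read was found for 83.6% of the CpGs in each sperm library, for 74.4% and 75.7% in monocytes and for 64.4% and 62.7% in fibroblasts, where the coverage was higher.

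Followed across the libraries, 183821 densely packed CpGs (78.7%) were under 20% in all 6, and 98956 of them were at 0 in all 6. Only 6765 (2.90%) were over 80% in all 6. A further 7436 (3.18%) were under 20% in both sperm libraries and over 80% in all 4 somatic libraries, and 174 (0.0745%) had the opposite arrangement. Levels of 20 to 80% in all 6 libraries were found for 58 CpGs. Among the 1481615 other autosomal CpGs within the coverage limits, 25.6% were under 20% in all 6 libraries, 20.6% were over 80% in all 6, 2.30% were low in sperm and high in somatic cells and 0.649% the reverse.

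The second question was how far the densely packed CpGs differed from the other autosomal CpGs. The other CpGs had a mean methylation of 57.3% and 56.8% in sperm against 61.1% and 60.8% in monocytes and 51.3% and 51.9% in fibroblasts. The densely packed CpGs were lower in every library, with a mean difference of -45.1 points (p = 0.03125, exact two-sided sign-flip permutation test over the 6 libraries, the smallest value it can give). This difference was -50.8 ± 0.332 points (SD, n = 2) in sperm compared with -47.0 ± 0.0749 in monocytes and -37.5 ± 0.288 in fibroblasts, without overlap. Against CpGs with 5 to 9 neighbours the densely packed CpGs differed by -30.6 points on average (exact permutation p = 0.03125). With this set of CpGs the order of the cell types changed, since the difference was -31.4 ± 0.254 points in sperm compared with -32.6 ± 0.0392 in monocytes and -27.8 ± 0.116 in fibroblasts. The contrast between sperm and the somatic libraries in this difference fell from 8.51 points against all other CpGs (exact permutation p = 0.133) to 1.15 points against CpGs with 5 to 9 neighbours (exact permutation p = 0.733), and against all other CpGs it was 2.77 points when CpGs were weighted by their coverage (exact permutation p = 0.667).

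The methylation was lower the more neighbours a CpG had, in sperm at every step, in monocytes and fibroblasts except for a rise of fibroblasts from 58.5% to 62.0% between no neighbour and 1 to 2 neighbours and a small rise of both at 20 or more. CpGs with no neighbour within 50 bp were methylated at 88.8% and 88.2% in sperm against 81.8% and 81.2% in monocytes and 57.6% and 59.5% in fibroblasts. Sperm was therefore the most methylated cell type at isolated CpGs and the least methylated at densely packed ones. From isolated to densely packed CpGs, the level dropped by 82.2 points in sperm, by 67.5 points in monocytes and by 44.5 points in fibroblasts, with each pair of cell types separated (exact permutation p = 0.333, the smallest possible).

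At the limit of the rule, the 93365 CpGs with 9 neighbours had a mean of 16.6% ± 0.0943 (SD, n = 2) in sperm compared with 26.1% ± 0.142 in monocytes and 24.9% ± 0.188 in fibroblasts. The 73042 with exactly 10 neighbours, which made up 31.3% of the densely packed CpGs, had means of 11.001% ± 0.0297, 20.1% ± 0.142 and 19.7% ± 0.145. Within the densely packed CpGs the decrease went on. At 13 neighbours the means were 2.48% in sperm against 8.94% in monocytes and 9.66% in fibroblasts. At 20 or more neighbours, reached by 605 CpGs with a maximum of 26, they were 0.475%, 5.63% and 5.90%. Somatic cells thus kept 5.29 points more than sperm at the highest density (exact permutation p = 0.0667).

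**Figure D1:**
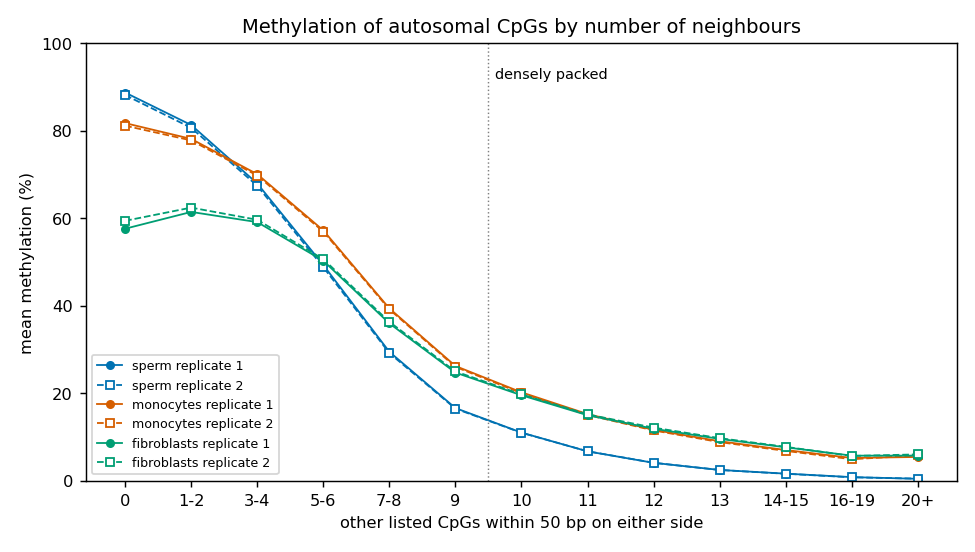
Mean methylation in percent of autosomal CpGs covered by 5 to 500 reads in all 6 libraries, against the number of other listed CpGs within 50 bp, with 1 line per library and the densely packed CpGs right of the dotted line. The sperm lines start highest, at 88.8% and 88.2% with no neighbour, cross the somatic lines and end lowest, while the monocyte and fibroblast lines run together from 10 neighbours on.

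The mean absolute difference between the 2 replicates of a CpG was 1.53 points in sperm compared with 2.37 in monocytes and 4.02 in fibroblasts, against 4.20, 6.08 and 9.88 points at the other autosomal CpGs. The replicates were more than 25 points apart at 0.621%, 1.27% and 2.87% of the densely packed CpGs, respectively. In the single libraries 62.7% to 83.6% of the densely packed CpGs were at exactly 0, against 22.2% to 31.6% of the others, and the part of this floor in the smaller differences was not tested.

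Methylation of the densely packed CpGs differed with mean coverage, though not in a steady trend. Among the classes given here it was lowest at 20 to under 50 reads and highest at 50 or more. The 1098 CpGs with a mean coverage of 50 reads or more were methylated at 10.1% ± 0.669 (SD, n = 2) in sperm against 54.4% ± 1.07 in monocytes and 45.3% ± 0.677 in fibroblasts. For the 113483 CpGs with a mean coverage of 20 to under 50 reads the means were 4.94%, 11.5% and 11.8%, and for the 13836 with fewer than 10 they were 7.78%, 16.9% and 16.8%. Sperm was lowest in each of these classes.

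Differentially methylated CpGs (DMCs) were then called between pairs of cell types. A DMC had an adjusted p below 0.01 by the likelihood ratio of a logistic model fitted to the reads summed over replicates, together with a difference of at least 25 points. Adjustment (Benjamini-Hochberg) was made over all 1758357 CpGs within the coverage limits on any chromosome. Because the reads of both animals are summed, the test holds no variation between animals. As a rough measure of that variation, the same rule applied to replicate 1 against replicate 2 called 99 densely packed CpGs in sperm compared with 78 in monocytes and 428 in fibroblasts. With 1 library against 1, it rests on fewer reads than the tests between cell types and calls less easily. Over all CpGs tested, these replicate comparisons called 0.305%, 0.173% and 0.663%.

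Between monocytes and sperm, 24205 densely packed CpGs (10.4%) were DMCs, against 18.9% of all CpGs tested. Of these, 22982 were higher in monocytes, where the median level was 94.1% against 1.64% in sperm, and 1223 were higher in sperm. Of the densely packed CpGs, 9.84% were called higher in monocytes and 0.524% higher in sperm, against 13.4% and 5.58% of all CpGs tested. Called CpGs higher in monocytes were 94.9% of the DMCs among the densely packed CpGs and 67.2% among the other autosomal CpGs. The levels of the single libraries did not overlap between the cell types for 24076 of the 24205. As the DMCs were called on the same reads, this largely follows from the call and is no separate support. The share among all CpGs tested was not computed.

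Between fibroblasts and sperm, 25682 densely packed CpGs (10.995%) were DMCs, against 29.0% of all CpGs tested. Fibroblasts were higher at 23656 of them (10.1% of the densely packed CpGs) and sperm at 2026 (0.867%), against 12.0% and 17.0% of all CpGs tested. The direction differed from that of the other autosomal CpGs, since 92.1% of the DMCs were higher in fibroblasts among the densely packed CpGs but 37.5% among the others. The single libraries were separated for 25471 of the 25682, which again largely follows from the call.

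Between the somatic cell types, 8321 densely packed CpGs (3.56%) were DMCs, against 17.5% of all CpGs tested. Monocytes were higher at 4672, with median levels of 92.9% in monocytes and 23.5% in fibroblasts. Fibroblasts were higher at 3649, with median levels of 63.0% in fibroblasts and 4.17% in monocytes. Of the densely packed CpGs, 2.00% were called higher in monocytes and 1.56% higher in fibroblasts, against 14.2% and 3.24% of all CpGs tested. DMCs higher in fibroblasts made up 43.9% of the calls among the densely packed CpGs and 18.2% among the other autosomal CpGs. With the edgeR quasi-likelihood test, which uses the spread between libraries, 2392 densely packed CpGs were called between monocytes and fibroblasts, and the other 2 counts stayed within 1.5 times those given here.

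Among the densely packed CpGs, the share of DMCs fell with the number of neighbours. Monocytes were higher than sperm at 12.2% of the CpGs with 10 neighbours and at 5.03% of those with 16 or more, and sperm was higher at 0.960% and 0.0447%. Fibroblasts were higher than sperm at 12.2% and 5.05%, and sperm was higher at 1.69% and 0.0626%. At CpGs with no neighbour the order was reversed, since sperm was higher than fibroblasts at 46.4% and lower at 3.12%.

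**Figure D2:**
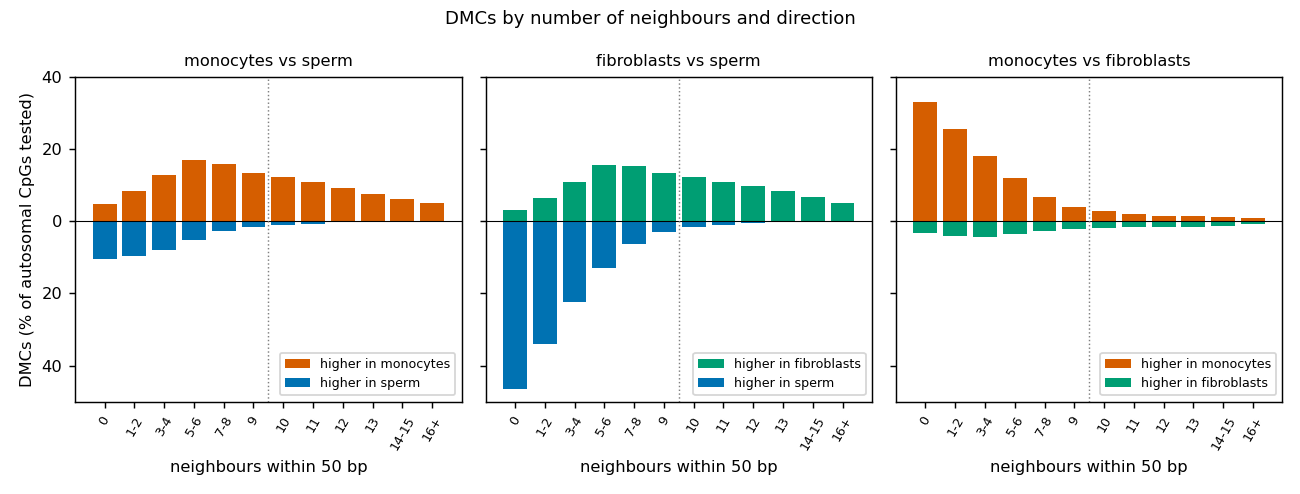
DMCs in percent of the autosomal CpGs tested, by number of neighbours within 50 bp, with 1 panel per comparison. Bars above the zero line count DMCs higher in the first cell type of the panel title and bars below it those higher in the second. Right of the dotted lines, which mark the densely packed CpGs, nearly all bars of both sperm comparisons point to higher somatic levels.

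At least 1 of the 3 comparisons called 30123 densely packed CpGs (12.9%, against 34.8% of all CpGs tested), and 1832 (0.784%, against 2.65%) were called in all 3. Of the densely packed CpGs, 18246 (7.81%) were sperm-specific DMCs, that is, they differed between sperm and both somatic cell types but not between these. Of all CpGs tested, 11.5% were in this set. Sperm was less methylated at 17668 of the 18246 (96.8%), with a median of 2.04% in sperm against 95.1% in monocytes and 91.7% in fibroblasts. These were 7.56% of the densely packed CpGs, against 8.93% of all CpGs tested. Of the sperm-specific DMCs among the other autosomal CpGs, 74.9% were less methylated in sperm. Sperm was more methylated at 578 densely packed CpGs (0.247%, against 2.52% of all CpGs tested), with medians of 96.3%, 3.28% and 6.00%. The edgeR test left 355 of this last kind.

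Sets particular to 1 somatic cell type were smaller. Fibroblasts were higher than both other cell types at 2658 densely packed CpGs (1.14%, against 0.921% of all CpGs tested), with median levels of 54.6% in fibroblasts, 3.03% in monocytes and 0.00% in sperm. Monocytes were higher than both others at 2271 (0.972%, against 1.86%), with a median of 83.3% in monocytes. Fibroblasts were lower than both others at 860 densely packed CpGs (0.368%), whereas 9.64% of all CpGs tested belonged to that set. Monocytes were lower than both others at 386 (0.165%, against 1.44%).

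The densely packed CpGs lie next to each other, so that neighbouring CpGs are not independent measurements. Members at most 100 bp apart were joined into clusters, and the 20703 clusters of at least 3 members held 222974 members (95.5%). A cluster had a median of 8 members and a median span of 66 bp, and the longest spanned 989 bp with 98 members. For each library the level of a cluster is the mean over its members. A cell type was called low in a cluster when both libraries were under 20%, high when both were over 80% and intermediate when both lay in between. These classes rest on the levels themselves and give a description without a test.

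In 15806 clusters (76.3%) all 3 cell types were low, and 1090 (5.26%) were high in all 3. Low in sperm and high in both somatic cell types were 871 clusters (4.21%), and the reverse was seen in 23 (0.111%). Low in sperm and intermediate in both somatic cell types were 286 clusters, intermediate in sperm and high in both somatic cell types 241, and intermediate in all 3 cell types 29. The somatic cell types were in different classes in further clusters. With sperm low, 214 were low in monocytes and intermediate in fibroblasts, 136 the reverse, and 146 were high in monocytes and intermediate in fibroblasts. With sperm and monocytes high, 116 were intermediate in fibroblasts. With sperm low, a further 51 were high in monocytes and low in fibroblasts and 16 the reverse, and with sperm high, 17 were of each kind. The remaining clusters fell into other combinations or had replicates in different classes.

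The mean over the somatic libraries exceeded that of sperm by at least 25 points in 2487 clusters (12.0%) and by at least 50 points in 1877. Sperm exceeded the somatic libraries by at least 25 points in 208 (1.00%) and by at least 50 points in 90. Most clusters thus lay at 1 corner of the plane of sperm and somatic levels, with 14488 (69.98%) under 5% on both axes. At the other corners, 1006 were over 90% on both and 616 were under 5% in sperm and over 90% in somatic cells.

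**Figure D3:**
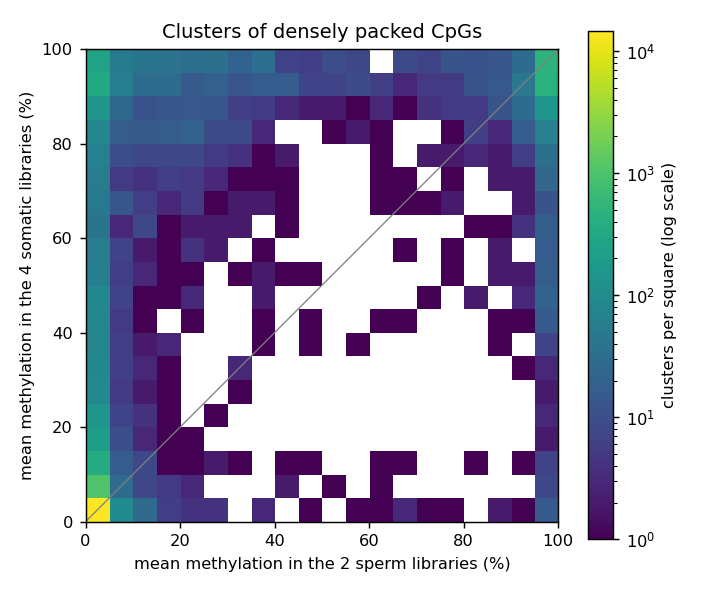
Number of clusters of at least 3 densely packed CpGs per square of 5 by 5 points, on a logarithmic colour scale, by the mean methylation in percent of the 2 sperm libraries and of the 4 somatic libraries. The squares fill along the left edge, the top edge and in 3 corners, and are sparse below the diagonal, where sperm exceeds the somatic libraries by at least 25 points in 208 clusters.

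The share of clusters low in all 3 cell types rose with their size up to 40 members. Of the 6548 clusters with 3 to 5 members, 67.1% were low in all 3 cell types and 8.75% high in all 3. Of the 2028 with 21 to 40 members, 91.8% were low in all 3 and 0.247% high in all 3. In the largest class, the 286 clusters with 41 to 98 members, 88.5% were low in all 3 and none was high in all 3, and the mean level was 7.83% in monocytes and in fibroblasts against 5.63% and 6.54% in the class before. Clusters low in sperm and high in both somatic cell types made up 4.37% of the smallest class and 4.89% of those with 6 to 10 members. Their share was 2.02% at 21 to 40 members and 2.10% in the largest class.

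The largest cluster of all was low in the 3 cell types. It lay at chr17:74153605-74154593 with 98 members, and its levels were 0.476% and 0.786% in sperm compared with 2.19% and 1.98% in monocytes and 2.77% and 2.60% in fibroblasts. The next largest of this pattern, at chr3:107173856-107174541 with 84 members, had 0.456% and 0.588% in sperm but 7.80% and 10.3% in fibroblasts. The third, at chr8:78418811-78419553 with 79 members, was under 1% in all 6 libraries, with a difference between somatic cells and sperm of -0.0492 points, whose sign changed when single libraries were left out.

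Of the clusters low in sperm and high in somatic cells, the largest lay at chr18:62379256-62379812 and held 62 members. Its level was 1.10% and 2.42% in sperm against 97.5% and 97.0% in monocytes and 95.9% and 96.1% in fibroblasts. All 62 members were DMCs in both sperm comparisons. Clusters were chosen by their levels in the same reads, so DMC calls of members add no support, here and in the clusters named below. Coverage summed over the members and libraries was 2919 in sperm and 3874 in somatic cells, counting a read at each member it covers. The highest level of any member in a sperm library was 13.3%. The 42 other CpGs between its members or up to 500 bp beyond its ends had 2.23% and 1.92% in sperm and 92.6% to 97.3% in the somatic libraries.

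The other two of this pattern held 55 members each. At chr13:81855547-81856020 the levels were 2.86% and 5.24% in sperm compared with 97.4% and 97.5% in monocytes and 95.5% and 96.7% in fibroblasts. At chr18:56511234-56511899 they were 2.46% and 4.84% in sperm against 96.4% and 97.0% in monocytes and 95.7% and 94.7% in fibroblasts. Every member of both clusters was a DMC in both sperm comparisons, and 1 member of each also differed between monocytes and fibroblasts. The lowest level of any member in a somatic library was 45.5% and 50.0%, respectively.

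The reverse pattern was found in shorter clusters. The largest, at chr25:41309127-41309240 with 14 members, had 99.3% and 98.4% in sperm compared with 0.340% and 0.00% in monocytes and 0.906% and 1.34% in fibroblasts. The difference of -98.2 points between somatic cells and sperm was larger than in any of the clusters named above, and all 14 members were DMCs against both somatic cell types. At chr29:49418750-49418832 with 12 members, sperm had 98.2% and 98.9%, and the somatic libraries ranged from 2.02% to 7.92%. At chr12:90460047-90460228 with 11 members, sperm had 98.8% and 96.1%, and the somatic libraries ranged from 0.260% to 3.13%.

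The 3 largest clusters high in every cell type held 22 to 25 members. At chr12:90753983-90754229 the levels were 98.0% and 98.1% in sperm against 96.6% and 96.5% in monocytes and 93.4% and 95.1% in fibroblasts. At chr21:70349026-70349193 they lay between 93.4% and 97.6%, and at chr14:2949231-2949375 fibroblasts were lowest with 80.8% and 86.6%.

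Intermediate levels in both somatic cell types along with low levels in sperm were found in some of the largest clusters. At chr23:27134946-27135535 with 66 members, sperm had 0.486% and 0.578%, monocytes 30.4% and 27.1% and fibroblasts 50.0% and 56.7%. At chr5:117711331-117711882 with 60 members, sperm had 0.552% and 0.943%, monocytes 51.1% and 37.0% and fibroblasts 27.5% and 37.5%. At chr27:36960116-36960546 with 53 members, the levels were 0.399% and 0.472% in sperm compared with 41.2% and 24.2% in monocytes and 38.3% and 60.5% in fibroblasts. In each of the 3 clusters single members of the somatic libraries ranged from 0 to at least 88.9%, so that the cluster level was a mean over unequal members. At chr5 and chr27 the SD between the replicates of a somatic cell type was 7.05 to 15.7 points, and the monocyte and fibroblast libraries overlapped.

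Clusters intermediate in all 3 cell types were small, with at most 9 members. At chr25:35464227-35464287 with 9 members, sperm had 26.1% and 30.2% and the somatic libraries 65.7% to 75.5%. At chr13:58047147-58047211 with 8 members, sperm had 22.2% and 20.2%, close to the limit of 20%, monocytes 33.1% and 53.1% and fibroblasts 46.5% and 53.5%. At chr17:63070401-63070463 with 7 members, the 6 libraries lay between 23.0% and 45.9%, with sperm at 33.6% and 33.0% and no separation between sperm and somatic libraries.

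**Figure D4:**
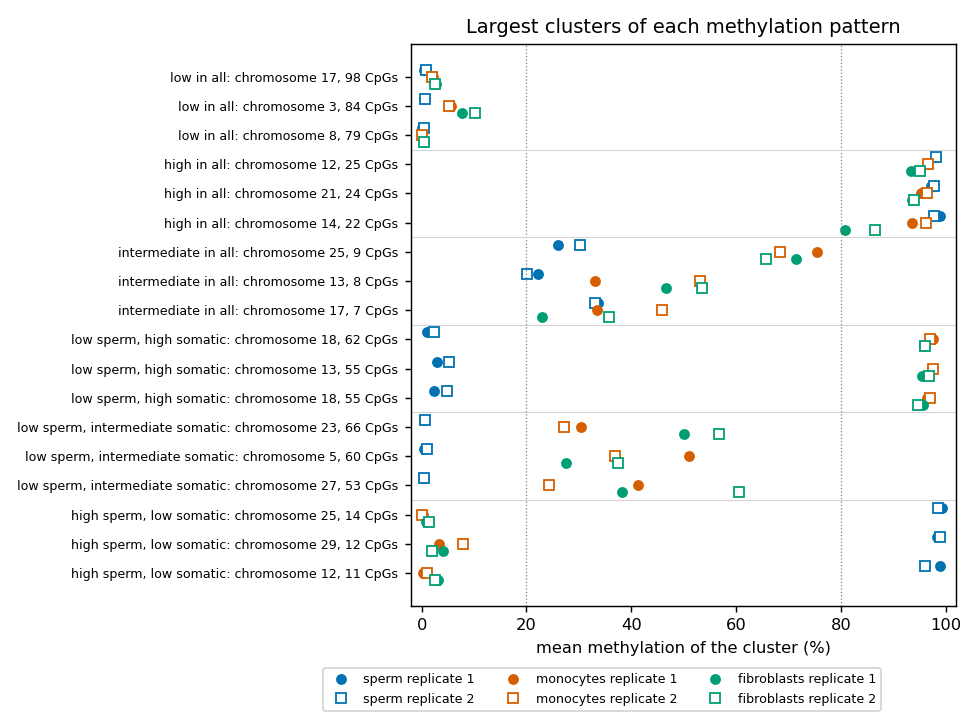
Mean methylation in percent of the 18 clusters chosen as the 3 with the most members of each pattern, with 1 point per library, filled circles for replicate 1 and open squares for replicate 2. The dotted lines mark 20% and 80%. Replicates lie close together in the clusters at either end of the scale and are spread in the intermediate ones, such as chromosome 27 with 53 members, where fibroblasts read 38.3% and 60.5%.

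The largest clusters of the patterns that set the somatic cell types apart were looked up after their values were seen. At chr25:26847481-26848118 with 79 members, monocytes had 98.4% and 94.3%, fibroblasts 12.7% and 8.54% and sperm 0.810% and 0.882%. All 79 members were DMCs between monocytes and sperm and between monocytes and fibroblasts, which adds no support since the cluster was chosen by these levels. At chr17:74534029-74534658 with 57 members, fibroblasts had 84.9% and 82.2%, monocytes 10.9% and 19.6% and sperm 1.82% and 2.23%. Methylation missing from 1 somatic cell type alone was seen at chr18:62470163-62470256, where fibroblasts had 4.99% and 17.3%, and at chr11:105964277-105964506, where monocytes had 7.31% and 10.3%, while the other libraries were at 88.6% or higher in both.

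The CpGs around the clusters showed how far these levels reached. Around clusters low in all 3 cell types, the mean level of other CpGs within 50 bp was 0.546% in sperm against 1.24% in monocytes and 2.05% in fibroblasts. At 401 to 800 bp from the cluster edge it was 5.77%, 15.7% and 13.7%, and at 1601 to 3200 bp 69.7%, 64.5% and 57.5%. Sperm was thus lowest near these clusters and highest far from them.

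Around clusters low in sperm and high in somatic cells, sperm levels rose from 3.79% within 50 bp to 8.68% at 201 to 400 bp, 27.8% at 401 to 800 bp, 63.1% at 801 to 1600 bp and 86.0% at 1601 to 3200 bp. Over the same distances the monocyte level changed from 95.2% to 84.5% and the fibroblast level from 89.6% to 73.1%. Monocytes thus stayed over 80% at these distances, fibroblasts were under 80% from 801 bp on and at 69.9% at 3201 to 6400 bp, and the low levels in sperm ended within the distances examined. Around clusters high in sperm and low in somatic cells, it was the somatic levels that rose, in monocytes from 2.81% within 50 bp to 46.4% at 401 to 800 bp and 74.6% at 801 to 1600 bp, while sperm stayed between 88.6% and 97.4% up to 6400 bp.

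**Figure D5:**
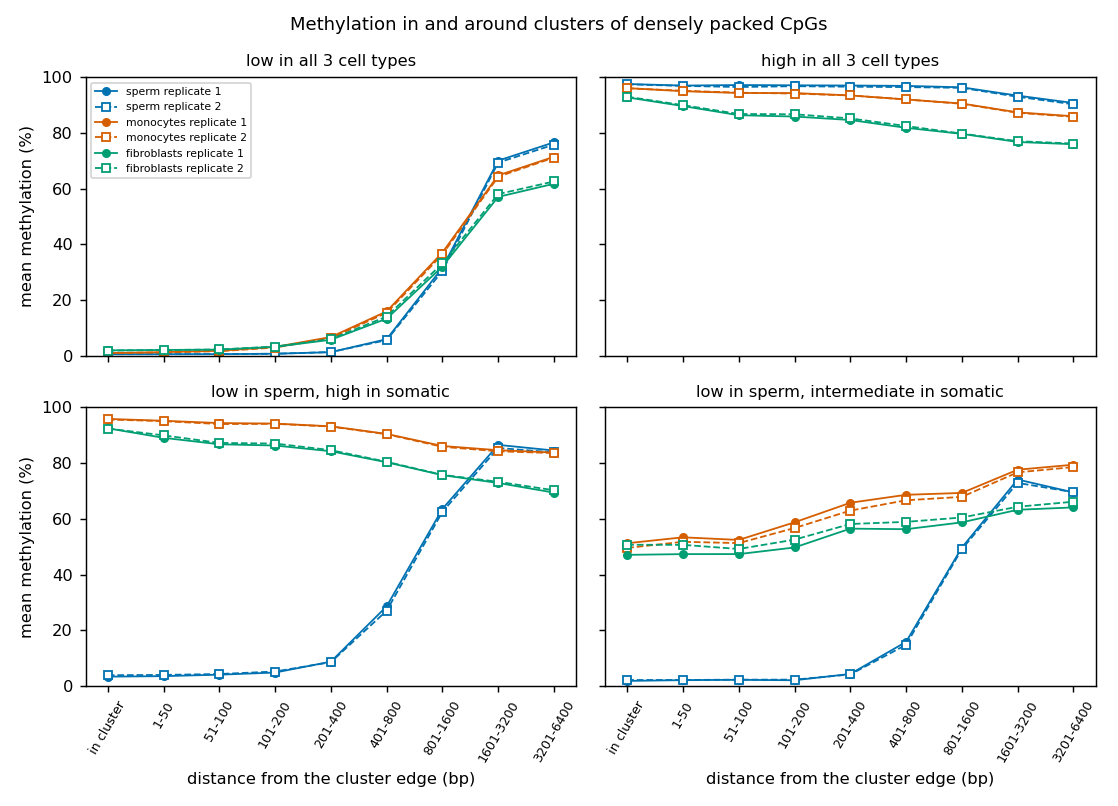
Mean methylation in percent in clusters and at other autosomal CpGs by distance from the edge of the nearest cluster in bp, with 1 line per library and 1 panel per pattern. In the panel of clusters low in sperm and high in somatic cells, sperm levels rise from 3.79% within 50 bp to 86.0% at 1601 to 3200 bp, where they reach the somatic levels.

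Sperm lay below all 4 somatic libraries on 29 of 29 autosomes. The mean level of the densely packed CpGs per chromosome ranged from 1.94% to 14.0% in sperm, from 7.26% to 21.9% in monocytes and from 7.58% to 21.2% in fibroblasts. Chromosome 28 was lowest in all 3 cell types. Chromosome 29 was highest in sperm, chromosome 18 in monocytes and chromosome 17 in fibroblasts.

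Near the end of chromosomes methylation was higher, both at the densely packed CpGs and at the other autosomal CpGs. In the last 5 Mb before the last listed CpG, which held 17.7% of the members, the level of the members was 18.96% and 18.86% in sperm compared with 33.0% and 32.8% in monocytes and 31.9% and 32.5% in fibroblasts. Elsewhere it was 3.54% in both sperm libraries, 9.98% and 9.79% in monocytes and 10.1% and 10.2% in fibroblasts. Of the clusters high in all 3 cell types, 57.5% lay in these ends, of those low in sperm and high in somatic cells 39.0%, of those low in all 3 cell types 11.9%, and of all clusters 18.6%.

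Clusters low in sperm and high in somatic cells were present on every autosome, with 8 to 82 per chromosome. Chromosome 18 held the most, with 9.41% of them, whereas chromosome 19 held the most clusters over all patterns, with 5.68%. The lead of chromosome 18 was not particular to this pattern. It also held the most clusters low in sperm and intermediate in both somatic cell types (10.1%). The same was true of clusters intermediate in sperm and high in both (10.4%). Clusters high in all 3 cell types were most frequent on chromosome 25 (9.63%), and those low in all 3 on chromosome 19 (5.91%). Of the 871 clusters, 321 (36.9%) had another of the same pattern within 10 kb. Clusters parted only by a gap just above the joining limit are included in this count. The same share was not computed for other patterns or for all clusters. The count therefore cannot show whether clusters of this pattern lie closer together than others.

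Between the 2 libraries of a cell type, the median difference over all clusters, of which most were low in all 3 cell types, was 0.395 points in sperm against 0.347 in monocytes and 0.943 in fibroblasts. Differences of 25 points or more occurred in 81 clusters in sperm compared with 110 in monocytes and 191 in fibroblasts. Among clusters of at least 10 members, chosen here for this difference, the largest in sperm was at chr15:81672523-81672605 with 10 members, where the bulls had 90.4% and 13.8% while the 4 somatic libraries ranged from 86.2% to 91.9%. The largest in monocytes was at chr23:39239727-39239783 with 10 members, where the cows had 13.1% and 84.9%. In the library with the lowest coverage, its members had a median of 6 reads, against 15 at the cluster named for sperm. For fibroblasts it was at chr23:3227362-3227521 with 22 members, where the libraries had 24.6% and 68.8%. With 1 library per animal, these differences have no replicate check.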

How the data were processed

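The RRBS libraries, 2 per cell type, were grouped by their labelled cell type. Per the submitters' processing notes, the tools were FastQC, Trim Galore 0.3.7, Bismark 0.14.3, Bowtie and methylKit, on UMD3.1. The authors deposited, per CpG and library, the coverage as counts of reads, and the methylated and unmethylated shares as percent, cut to 1 decimal. Methylated reads were recovered as the nearest whole number, and every CpG of up to 500 reads gave back its deposited percent.

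The tables list a CpG at either of its 2 positions, so positions 1 bp apart were joined and their reads summed (913483 CpGs). CpGs 2 bp apart were rarely listed within a library (37172 to 42597 pairs, against 173968 to 187530 pairs 3 bp apart), so neighbour numbers at such runs may be too low. Positions of 17133 longer runs were paired from the left.

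Levels are means over CpGs per library, compared by exact two-sided permutation tests. The DMC tests were tried on reads simulated at the real coverage, with changes placed in sperm and no variation between animals of a cell type. They therefore cannot show how the tests behave where animals differ. Named clusters were the 3 with the most members of each of 6 patterns, ties by position. Planned gene lists and cell type markers were not used here, since no UMD3.1 annotation was used. The rule for the members, the lists and the tests were chosen with earlier results of these data known. The alternatives covered coverage, neighbour number, weighting, test, thresholds, cluster definition and each library left out. Intervals of counting are not given, since values are means over many CpGs. Python 3.11.15, numpy 2.4.6, scipy 1.17.1, R 4.3.3 and edgeR 4.0.16 were used.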

Additional observations from a re-analysis of the deposited data

Results flagged for a closer look

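Densely packed CpGs outside the autosomes were not used in the comparisons. On the X chromosome, 4968 CpGs with 10 or more neighbours passed the coverage limits, and their mean methylation was 1.72% in sperm against 35.9% in monocytes and 33.5% in fibroblasts. In the single libraries, levels of 20 to 80% were found for 1.37% and 1.05% of them in sperm compared with 55.6% and 56.3% in monocytes and 53.3% and 51.8% in fibroblasts. Sperm came from males, and its median coverage there was 11 in both libraries against 15 to 28 in the somatic libraries from females, so that sex and cell type cannot be told apart. The 1198 such CpGs on unplaced sequences had 27.4% in sperm against 53.8% in monocytes and 49.9% in fibroblasts.

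Autosomal CpGs with 10 or more neighbours that exceeded 500 reads in some library had 11.4% in sperm compared with 61.5% in monocytes and 52.2% in fibroblasts, over 584 to 625 CpGs covered by at least 5 reads per library. The part of the high coverage in these levels was not tested.

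The difference between fibroblasts and sperm pointed to opposite sides in 2 sets of CpGs measured in the same libraries. It was 7.81 points at the densely packed CpGs and -5.45 points at the other autosomal CpGs, with both fibroblast libraries on the same side each time. Between densely packed and other CpGs the difference thus changed by 13.3 points (exact permutation p = 0.333, the smallest possible with 2 libraries against 2).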

How the results depend on the processing

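Somatic levels stayed above sperm, and densely packed CpGs stayed below the others, under every alternative tried. Without 1 library the second difference ranged from -46.7 to -43.9 points, and 5 libraries cannot reach an exact p below 0.05. Monocytes minus fibroblasts turned to 0.828 points with 8 or more neighbours, 1.06 with weighting by coverage and 0.940 with 1 CpG per cluster.

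Counts of CpGs and clusters changed with the number of members that each rule leaves, and the share of members called changed as well. DMCs between monocytes and sperm were 13.1% of the members with 8 or more neighbours and 6.79% with 13 or more, and CpGs specific to and higher in sperm were 0.508% and 0.0691%. In the order monocytes against sperm, fibroblasts against sperm, monocytes against fibroblasts, sperm-specific lower and sperm-specific higher in sperm, the DMCs were 14348, 15328, 5330, 10296 and 358 with at least 10 reads. They were 57908, 63081, 23300, 40190 and 2244 with 8 or more neighbours, and 4422, 4733, 1622, 3233 and 45 with 13 or more. With neighbours counted among CpGs covered in all 6 libraries, which left 133470 members, they were 12666, 13483, 4542, 9227 and 232. Each of these rules leaves a different number of members, so the counts alone do not compare the shares called. Between monocytes and fibroblasts the edgeR test gave 2392 and a minimum difference of 50 points gave 4053, and the edgeR test gave 355 CpGs specific to and higher in sperm, where the cause was not tested. With 13 or more neighbours, 48.6% of the DMCs between monocytes and fibroblasts were higher in monocytes.

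In the order low in all 3 cell types, high in all 3, intermediate in all 3, low in sperm and high in somatic, low in sperm and intermediate in somatic, and high in sperm and low in somatic, the clusters with 13 or more neighbours numbered 6111, 73, 0, 223, 62 and 2. With neighbours counted among CpGs covered in all 6 libraries they numbered 9914, 489, 8, 512, 160 and 10. With 8 or more neighbours the last 5 were 4243, 91, 1636, 607 and 86. With at least 10 reads, 666 were high in all 3 and 17 intermediate in all 3, and with limits of 30% and 70%, 3 were intermediate in all 3 and 98 low in sperm and intermediate in somatic.

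Among single clusters, the difference between somatic cells and sperm at chr8:78418811-78419553 ranged from -0.238 to 0.139 points when 1 library was left out, and was 0.0231 and 0.0150 points without monocyte replicate 1 and 2. At chr17:63070401-63070463 it ranged from -2.59 points without monocyte replicate 2 to 5.04 points.

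The same replicate numbers name different animals in each cell type. Deviations of same-numbered libraries had correlations of 0.00322, 0.00121 and -0.00370 over all CpGs tested, for the 3 comparisons. At the densely packed CpGs the correlations were 0.00261, 0.000962 and -0.0177. Chance in which molecules were sequenced also enters these deviations, so small correlations cannot exclude that the numbers pair libraries. With the replicate block, the DMC counts were 23504, 24775, 7437, 17554 and 556, in the order above.

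Levels of single CpGs rest on 5 or more reads and are coarse, and with 2 animals per cell type the spread between animals is poorly known. PCR copies are not independent molecules.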
